A study of Macaca mulatta with 10 samples.

Results

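The centre of differentiating embryonic stem (ES) cell colonies was compared with undifferentiated ES cells of the same line. The comparison uses 4 of the 10 arrays of the study, chosen by sample title: IVDS2-C1 and IVDS2-C2, which hold RNA from the central foci of colonies at in vitro differentiation stage 2, and ES-1 and ES-2, which hold RNA from undifferentiated ORMES6 cells. ORMES6 is an ES cell line of the rhesus macaque. The other arrays are 2 of the peripheral area of the stage 2 colonies (IVDS2-P), 2 of stage 2 cells as a whole (IVDS2) and 2 of stage 3 cells (IVDS3), all of the same line and without a named genetic change. They serve here to estimate the spread. IVDS2-P and IVDS3 also show where the centre stands apart, and values of IVDS2 are given in a few places.

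Undifferentiated cells were grown on mouse embryonic fibroblast feeders in DMEM/F12 medium with serum replacement and basic fibroblast growth factor (bFGF, 4 ng/ml). Foci of hepatic character were sought by growing the ES cells together with cells that the labels name hESdF. Several things limit the groups as models. All arrays come from 1 cell line, the labels give every array the same growth and co-culture text and the same cell type, and they do not say how centre and periphery were separated, how many colonies were pooled, how long each stage lasted or how feeder and hESdF cells were kept out of the RNA. Nor do they say whether the 2 samples of a group came from separate cultures, so the p-values measure only the spread between these samples, which may be technical.

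Undifferentiated ES cells are held in that state by a network of transcription factors around POU5F1, SOX2 and NANOG, fed by FGF and TGF-beta family signals. When this network is switched off, regulators of the first lineages come on: GATA3, TFAP2A and TP63 in trophoblast, amnion and surface ectoderm, MSX and PAX3 genes at the border of the neural plate, and SOX17, FOXA2 and GATA4 in the endoderm, which gives rise to the liver. Interferon-stimulated genes such as IFIT1 and MX1 encode antiviral effectors.

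The values are log2 expression relative to the median of the 10 arrays for each probe set, so a value of 0 is that median, and they give no level on an absolute scale or between genes. Across 13191 genes the replicate difference had an SD of 0.29 between the 2 centre arrays and 0.37 between the 2 ES arrays, against 0.21 to 0.26 in the other groups. ES-2 stood apart at 377 probe sets grouped by their IDs as viral or other sequences. Their median was 0.34 in ES-2, where the other 9 arrays lay between -0.10 and 0.05. The IDs do not show that all of these probe sets are viral. ES-2 also had the highest median over all genes, at 0.08. The 2 centre arrays also differed in a systematic way. IVDS2-C2 read above IVDS2-C1 in 1297 of the 1803 genes called higher in the centre than in ES cells, and below it in 1718 of the 2173 called lower, while over all 13191 genes it was above in 6005 and below in 7186. Calls and counts are therefore also given without single arrays where these changed them.

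The centre differed widely from ES cells. A gene was called, and is said to have risen or fallen, at a Benjamini-Hochberg adjusted p under 0.05 over all 13191 genes in limma, with the spread taken from all 10 arrays. At this threshold 3976 genes (30.1%) differed, of which 1803 (13.7% of all genes) were higher and 2173 (16.5%) lower in the centre. Genes whose 2 centre and 2 ES arrays did not overlap numbered 8676 (65.8%), a share that makes non-overlap alone a weak statement. Calls with at least a 2-fold difference numbered 1257 (9.53%), and those with at least a 4-fold difference 336 (2.55%). The count rested on single arrays: it was 1896 without IVDS2-C2 and 3292 without ES-2, and 1712 genes (13%) were called whichever of the 10 arrays was left out. The balance of directions turned without IVDS2-C2, to 1032 higher and 864 lower, and when each array was centred on its own median, to 1930 higher and 1852 lower. With only the 4 arrays compared the balance also turned, to 1129 higher and 1038 lower. The median difference over all genes was -0.11.

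The largest rises were in genes of varied function. GABRP, a subunit of the GABA receptor that is made in epithelia, read 2.02 and 2.73 in the centre arrays, against -4.32 and -3.87 in the ES arrays, a log2 difference of 6.47 ± 0.23 (SE), which is 88.9-fold (adjusted p = 7.22e-06). HAPLN1, which links hyaluronan to proteoglycans in the extracellular matrix, read 1.90 and 1.44 in the centre and -4.90 and -4.59 in ES cells (6.42 ± 0.27, 85.4-fold, adjusted p = 7.36e-06). In both genes the groups lay more than 6 log2 units apart on average and the spread within each was under 1 unit. Next came the scavenger receptor COLEC12 (5.57 ± 0.60), the epithelial zinc finger protein BNC1 (5.27 ± 0.30), the interferon-induced IFIT1 (5.24 ± 0.71), DENND1B, an exchange factor for Rab GTPases in membrane traffic (5.16 ± 0.30), and KANK4, a regulator of the actin cytoskeleton (5.14 ± 0.28). CYP1A1, the xenobiotic-metabolising enzyme induced through the aryl hydrocarbon receptor, rose by 5.08 ± 0.67, the nuclear receptor NR2F2 by 5.04 ± 0.31 and GATA3 by 4.95 ± 0.33. The fatty acid translocase CD36 read 2.13 and 2.00 in the centre and -2.70 and -3.04 in ES cells (4.94 ± 0.20, adjusted p = 7.36e-06), with the 2 arrays of each group close together. The remaining members of the 15 largest rises were VGLL1, a cofactor of TEAD transcription factors in trophoblast (4.92 ± 0.29), the epithelial transcription factor KLF5 (4.92 ± 0.39), the interferon-induced IFI27 (4.85 ± 0.61) and the metallothionein MT1E (4.84 ± 0.62). These RNAs come from mixed cells, so fewer cells of a type and less RNA per cell cannot be told apart in any difference given here.

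The largest falls included defining genes of pluripotent cells. ARHGAP36, a regulator of protein kinase A and hedgehog signalling, read -0.95 and -1.21 in the centre and 4.61 and 3.91 in ES cells, a log2 difference of -5.34 ± 0.68 (adjusted p = 0.000677). POU5F1 read -0.50 and -3.38 in the centre and 2.98 and 3.30 in ES cells (-5.08 ± 0.79, adjusted p = 0.00179), so that the second centre array was nearly 3 log2 units below the first while both lay below both ES arrays. The secreted phosphoprotein SPP1, which binds integrins, differed by -4.82 ± 0.78, the membrane protein ITM2A by -4.45 ± 0.34 and the WNT inhibitor SFRP1 by -4.36 ± 0.38. DPPA4, a chromatin-associated protein of pluripotent cells, read -0.23 and -2.23 in the centre and 2.77 and 3.14 in ES cells (-4.19 ± 0.53). DNMT3B, the de novo DNA methyltransferase, read -0.60 and -1.62 in the centre and 2.68 and 2.76 in ES cells (-3.83 ± 0.37, adjusted p = 0.0002). In DPPA4 and DNMT3B, as in POU5F1, IVDS2-C2 was the lower of the centre arrays. The orphan receptor GPR176 (-3.99 ± 0.27), the G protein regulator RGS20 (-3.84 ± 0.28), the secreted peptide precursor ECRG4 (-3.55 ± 0.29) and the tight junction protein CLDN10 (-3.41 ± 0.17) followed. BEND4 (-3.37 ± 0.50), UGT8, which makes galactosylceramide (-3.35 ± 0.29), the neuronal pentraxin NPTX2 (-3.22 ± 0.34) and the zinc finger protein JAZF1 (-3.19 ± 0.30) completed the 15. All 30 of these rises and falls kept their calls whichever of the 10 arrays was left out.

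**Figure D1:**
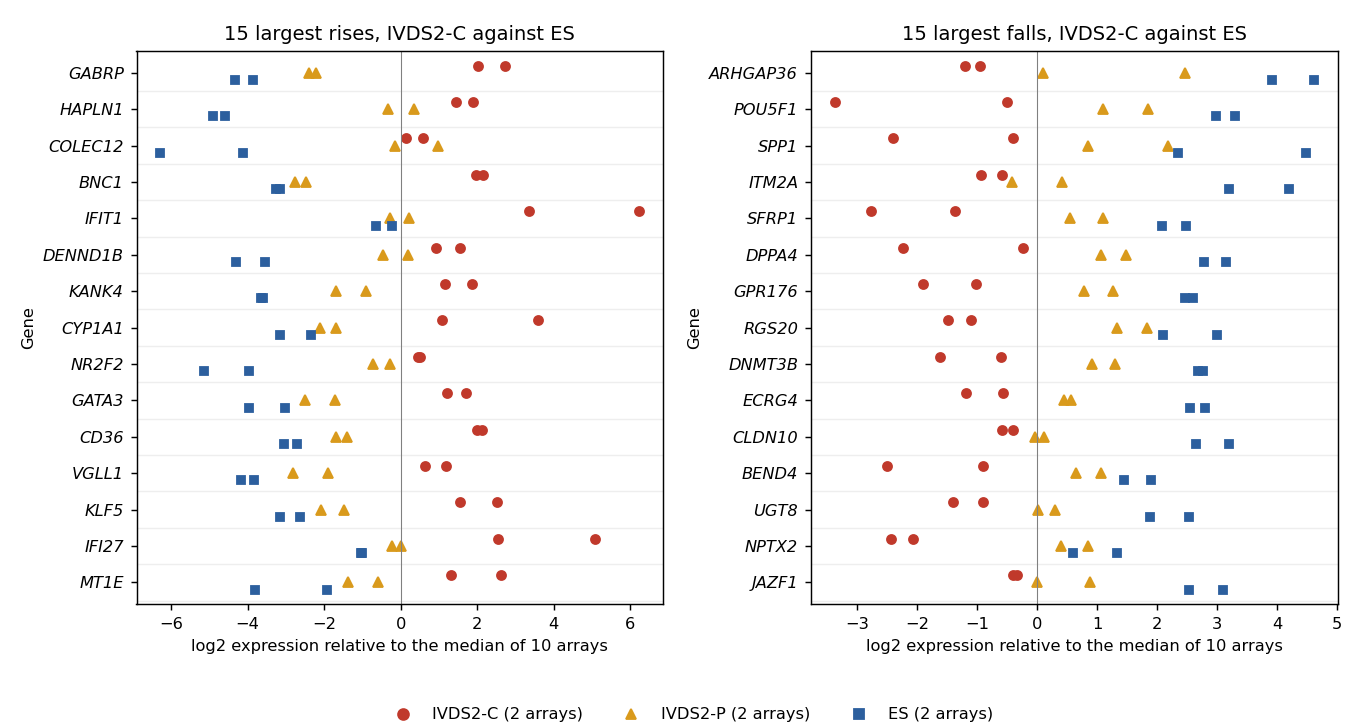
Values of the 15 genes with the largest rise (left) and the 15 with the largest fall (right) in IVDS2-C against ES, 1 point per array, on the log2 scale relative to the median of the 10 arrays, with IVDS2-P between them for comparison. In each of the 30 genes the 2 centre points lie apart from the 2 ES points, as the choice of these genes required. In POU5F1 the centre points themselves lie at -0.50 and -3.38.

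Genes were also read by lists of known function, described by how many measured members were called and by the median difference, to be set against the 13.7% of genes called higher, the 16.5% called lower and the median of -0.11. In 13 lists with medians between -0.25 and 0.18 (antigen presentation, cholesterol and lipid, epithelial to mesenchymal transition, endoderm, endothelial, fibroblast, both liver lists, mesoderm, NOTCH, retinoic acid, ribosome and WNT) the median moved by over 1.5 times or changed sign without 1 of the ES or centre arrays, to values between -0.18 and 0.31. The 1 or 2 falls in the basement membrane, YAP, neural, junction, NOTCH, retinoic acid and trophoblast lists, and the 1 or 2 rises in the chromatin and glycolysis lists, ranged from 0 to 2 in the fits without 1 array. In the pluripotency list, 12 of 19 measured members fell and 1 rose, with a median of -1.29. Its mean over members was -0.16 and -0.69 in the centre arrays, against 1.03 and 1.40 in the ES arrays. SOX2 read -0.01 and -0.56 in the centre and 1.72 and 1.94 in ES cells (-2.12 ± 0.21, adjusted p = 0.000228). NR5A2, a nuclear receptor that binds the POU5F1 promoter in mouse, differed by -2.92 ± 0.24, the zinc finger protein ZSCAN10 by -2.80 ± 0.23 and the WNT modulator SFRP2 by -2.75 ± 0.29. SALL4, which occupies many POU5F1 target sites, read -0.70 and -1.48 in the centre and 0.31 and 1.42 in ES cells (-1.95 ± 0.36, adjusted p = 0.00438), with the 2 arrays of each group about 1 log2 unit apart. Of the 12 falls, 9 persisted when any single array was removed.

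NANOG ran the other way. Its single probe set read 0.16 and 0.36 in the centre and -0.70 and -1.37 in ES cells, a rise of 1.30 ± 0.19 (adjusted p = 0.00151) that held in every fit without 1 array. The 2 centre arrays were alike and the ES arrays lay lower, ES-2 the lowest. Whether this probe set reads NANOG alone was not tested. ZFP42, GDF3 and NODAL, further members of the list, were not called, at -0.26 ± 0.12, -0.22 ± 0.21 and -0.28 ± 0.18.

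**Figure D2:**
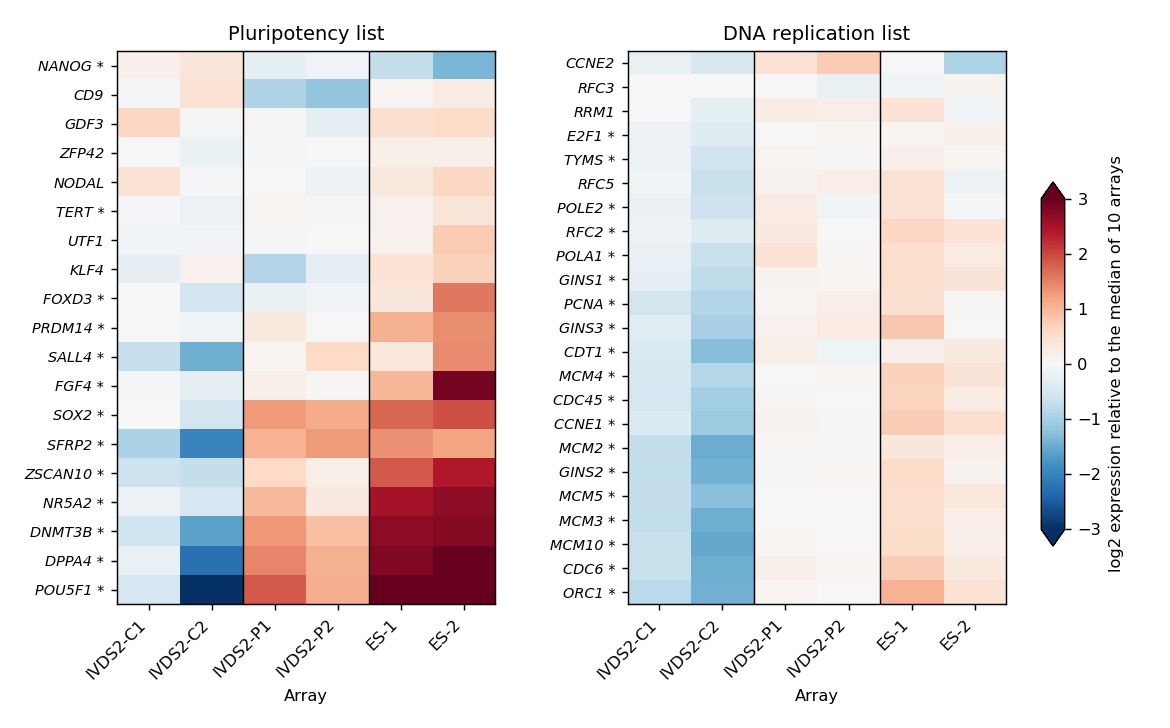
Heat maps of the members of the pluripotency list (left) and the DNA replication list (right) in the 2 IVDS2-C, 2 IVDS2-P and 2 ES arrays, coloured by log2 expression relative to the median of the 10 arrays, with genes ordered by the IVDS2-C minus ES difference and * for genes called. The lower rows are blue in IVDS2-C and red in ES, darkest blue in IVDS2-C2, and NANOG at the top is the member with the opposite pattern.

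Genes of the FGF pathway, which sustains primate ES cells in culture, fell more often than they rose (10 of 19 lower, 2 higher, median -0.52, or -0.31 without ES-2). The ligand FGF2 read -0.22 and -0.90 in the centre and 1.87 and 1.91 in ES cells (-2.45 ± 0.28, adjusted p = 0.000415). The ETS factors ETV4 (-2.31 ± 0.21) and ETV1 (-1.92 ± 0.21), which are induced by FGF signalling, fell as well. FGF4, a ligand of pluripotent cells, read -0.03 and -0.28 in the centre and 0.99 and 2.87 in ES cells (-2.09 ± 0.47, adjusted p = 0.0106), where ES-2 was far above ES-1, and its adjusted p was 0.0624 without IVDS2-C2. The members that rose were the receptor FGFR2 (1.02 ± 0.16) and FLRT3, a membrane protein that binds FGF receptors (1.68 ± 0.18). Without IVDS2-C2 the list had 6 members called lower. The labels give bFGF in the growth text of every array and do not say whether the medium changed during differentiation.

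Genes of the WNT pathway split. The ligands WNT6 and WNT10A rose by 3.80 ± 0.31 and 1.98 ± 0.34, the receptor FZD10 by 3.26 ± 0.47, the agonist RSPO3 by 3.17 ± 0.32 and AXIN2, an inhibitor that WNT signalling itself induces, by 1.88 ± 0.21. WNT6 read 1.06 and 1.87 in the centre and -2.16 and -2.50 in ES cells, with no overlap. The secreted inhibitors SFRP1 (-4.36 ± 0.38) and SFRP2 (-2.75 ± 0.29) fell, as did the receptors FZD7 (-2.03 ± 0.26) and FZD5 (-1.99 ± 0.31) and the ligand WNT5A (-0.95 ± 0.13). SFRP1 read -1.38 and -2.77 in the centre and 2.08 and 2.48 in ES cells. Altogether 7 of 27 members rose and 10 fell, with a median of 0.02, and 5 of the rises and 8 of the falls held with each array left out in turn.

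Trophoblast and amnion genes rose together. Of 23 measured members of that list 14 rose and 1 fell, with a median difference of 1.25, and 12 of the rises persisted when any single array was removed. GATA3, a transcription factor of trophoblast and of surface ectoderm, read 1.21 and 1.71 in the centre and -3.96 and -3.04 in ES cells (4.95 ± 0.33, 31.0-fold, adjusted p = 4.34e-05). VGLL1 read 0.63 and 1.20 in the centre and -4.18 and -3.83 in ES cells (adjusted p = 2.17e-05). For both, every centre array was more than 4 log2 units above every ES array. ISL1, a homeobox gene of the amnion and of the early heart, read 1.09 and 1.62 in the centre and -2.06 and -2.22 in ES cells (3.50 ± 0.25, adjusted p = 6.26e-05), and TFAP2A rose by 2.97 ± 0.23. The member that fell was TEAD4, a transcription factor of mouse trophectoderm (-0.54 ± 0.15), with an adjusted p of 0.0536 to 0.169 without any one of ES-1, ES-2 and IVDS2-C2. CDX2, which marks mouse trophectoderm, was not called, at -0.19 ± 0.13.

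The rises extended to genes of basal and stratified epithelium. In the epidermal list 10 of 21 members rose and the other 11 were not called. The median was 0.85, against 0.43 without IVDS2-C2, and all 10 rises held in every fit without 1 array. TP63, the master regulator of basal epithelium, read 0.77 and 0.91 in the centre and -2.40 and -2.32 in ES cells over its 6 probe sets (3.20 ± 0.14, adjusted p = 7.36e-06). Its probe sets differed in size, from 1.19 to 5.25, and all were above 0. BNC1 read 1.97 and 2.16 in the centre and -3.16 and -3.26 in ES cells, and KLF5 read 1.54 and 2.51 in the centre and -3.14 and -2.64 in ES cells. Neither gene overlapped between the groups, as their choice among the largest rises required. GRHL1, a transcription factor that acts on desmosomal genes, rose by 2.54 ± 0.20, the cell cycle adaptor SFN (14-3-3 sigma) by 2.52 ± 0.31 and the desmosomal cadherin DSG3 by 2.39 ± 0.40. IVDS2-C2 read above IVDS2-C1 in all 21 members.

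Cell junction genes followed. Of 26 measured members of the epithelial junction list 12 rose and 1 fell (median 0.41, or 0.26 without ES-1). The risers included 5 claudins of tight junctions: CLDN23 (2.36 ± 0.30), CLDN1 (2.33 ± 0.37), CLDN8 (1.98 ± 0.39), CLDN3 (1.93 ± 0.35) and CLDN7 (1.86 ± 0.30), and RAB25, a Rab GTPase of apical recycling (2.51 ± 0.28). Keratins differed among themselves: KRT19 read -0.17 and 0.17 in the centre and -1.88 and -1.48 in ES cells (1.68 ± 0.20, adjusted p = 0.000473), KRT8 rose by 1.44 ± 0.23, and KRT18 was not called, at 0.06 ± 0.15. KRT7, of simple and ductal epithelium, read 0.71 and 1.72 in the centre and -1.40 and -1.08 in ES cells (2.46 ± 0.34). CDH1, the adhesion molecule of epithelia and of ES cells alike, read -0.04 and 0.15 in the centre and -0.72 and 0.00 in ES cells and was not called (0.42 ± 0.24, adjusted p = 0.215). It was called without ES-2, at 0.78 (adjusted p = 0.0345). CLDN10, described above, was the junction gene that fell.

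**Figure D3:**
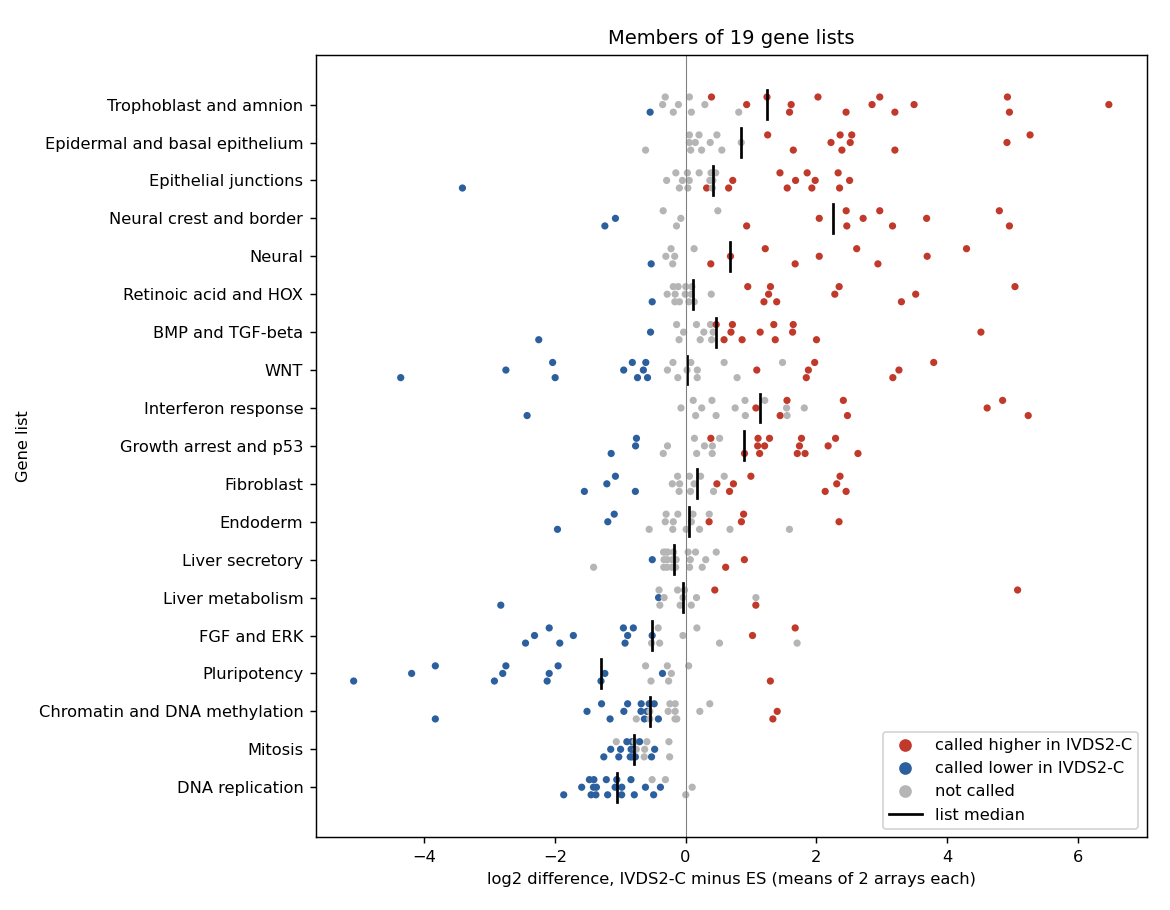
Log2 difference between IVDS2-C and ES for every measured member of 19 gene lists, 1 point per gene, red where called higher, blue where called lower and grey where not called, with a black bar at the list median. The neural crest and border, trophoblast and amnion, and interferon lists have medians above 1, at 2.25, 1.25 and 1.14, and the pluripotency and DNA replication lists medians below -1, at -1.29 and -1.05, while the endoderm and liver lists centre near 0.

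The highest median of the 34 lists, 2.25, was that of genes of the neural crest and the neural plate border, where 10 of 16 members rose and 2 fell. MSX2, a homeobox gene induced by BMP signals, read 1.24 and 1.12 in the centre and -3.44 and -3.80 in ES cells (4.80 ± 0.25, adjusted p = 1.73e-05). TFAP2B rose by 3.69 ± 0.19, MSX1 by 3.17 ± 0.23 and the homeobox gene DLX3 by 2.72 ± 0.33. SOX9, of crest, cartilage and ducts, read 0.68 and 1.00 in the centre and -1.77 and -1.48 in ES cells (2.47 ± 0.22). Both centre arrays were above both ES arrays in each of these 5 genes, which their choice by size of rise nearly fixed. Over all genes 65.8% had no overlap between these groups, in either direction. The largest rise of the list, GATA3 (4.95 ± 0.33), and TFAP2A also belong to the trophoblast and amnion list. The results of these lists are therefore not independent. The 2 members that fell were TWIST1 and FOXD3, at -1.07 ± 0.35 and -1.23 ± 0.35. TWIST1 had an adjusted p of 0.0486, and of 0.0629 to 0.279 without any one of ES-2, IVDS2-1, IVDS2-2, IVDS2-C1, IVDS2-C2, IVDS3-1 and IVDS3-2. For FOXD3 it was 0.0273, and 0.104 without ES-2 and 0.166 without IVDS2-C2. Of the 10 rises 9 held with each array left out in turn.

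Neural genes and the nuclear receptors and homeobox factors tied to retinoic acid rose too. In the neural list 9 of 15 members rose and 1 fell (median 0.69), and 6 of the rises persisted when any single array was removed. PAX6, a transcription factor of the eye and the neural tube, read 0.11 and 0.82 in the centre and -2.53 and -3.94 in ES cells (3.70 ± 0.48, adjusted p = 0.000722). The neuronal genes STMN2 (a tubulin-binding protein), ELAVL4 (an RNA-binding protein) and DCX (doublecortin) rose by 4.30 ± 0.60, 2.94 ± 0.30 and 1.68 ± 0.30, and LMX1A, a homeobox gene of the roof plate, by 2.62 ± 0.22. ES-2 was the lowest array in PAX6, STMN2, ELAVL4, DCX and LMX1A, and the list had 6 members called higher without it. In the retinoic acid list 10 of 24 members rose and 1 fell, with a median of 0.12. NR2F2 read 0.46 and 0.50 in the centre and -3.98 and -5.14 in ES cells, NR2F1 rose by 3.52 ± 0.41, the homeobox cofactors MEIS1 and MEIS2 by 3.30 ± 0.30 and 2.35 ± 0.34, and CRABP1, which binds retinoic acid in the cytoplasm, by 2.28 ± 0.40. HOXA2, of the hindbrain and its crest, read 0.50 and -0.02 in the centre and -0.71 and -1.60 in ES cells (1.39 ± 0.30, adjusted p = 0.00863).

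Signalling genes of the BMP and TGF-beta families rose in 12 of 23 members and fell in 2 (median 0.47, or 0.75 without IVDS2-C2, 8 rises and both falls held in every fit without 1 array). TGFBI, a matrix protein induced by TGF-beta, read 1.51 and 2.11 in the centre and -2.96 and -2.46 in ES cells (4.52 ± 0.32, adjusted p = 6.26e-05). The ligands BMP2 and BMP7 rose by 2.00 ± 0.24 and 1.35 ± 0.20. So did 3 inhibitors that these signals induce: SMAD7 (1.65 ± 0.33), BAMBI, a decoy receptor (1.64 ± 0.28), and SKIL (1.37 ± 0.18). Follistatin (FST), which traps activins, read -0.36 and -2.01 in the centre and 1.49 and 0.63 in ES cells (-2.25 ± 0.48, adjusted p = 0.00852), and the ligand TGFB1 fell too, at -0.54 ± 0.10. In the NOTCH list 4 of 15 members rose and 1 fell (median 0.13). The fall was that of RBPJ, the DNA-binding partner of the NOTCH receptors, at -0.50 ± 0.13, with an adjusted p of 0.0539 without ES-2 and 0.133 without IVDS2-C2. The risers were the target gene HEY1 (0.75 and 0.69 in the centre, -2.68 and -2.99 in ES cells, 3.55 ± 0.26), the coactivator MAML2 (2.00 ± 0.18), the receptor NOTCH2 (1.39 ± 0.14) and the ligand JAG2 (1.11 ± 0.24). Of the YAP and cytoskeleton list 6 of 18 members rose and 2 fell (median 0.43), the rises led by ANKRD1, a target gene of YAP, which read 2.27 and 2.09 in the centre and -1.96 and -1.61 in ES cells (3.96 ± 0.27, adjusted p = 4.65e-05). The falls were those of the caveolar coat protein CAV1, at -2.10 ± 0.27, and of TEAD4.

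Matrix and adhesion genes joined them. Laminins of the early basement membrane, LAMB1, LAMA1 and LAMC1, rose by 1.56 ± 0.18, 1.53 ± 0.22 and 1.13 ± 0.18, and the integrin subunits ITGA2 and ITGB6 by 2.93 ± 0.49 and 1.46 ± 0.27. Of 19 members of this list 7 rose and 1 fell (median 0.35). ITGA2, a collagen receptor subunit, read 1.20 and 3.16 in the centre and -0.72 and -0.78 in ES cells, so the 2 centre arrays lay nearly 2 log2 units apart. The S100, serpin and annexin list, which holds calcium-binding proteins and protease inhibitors, was read as well. Of its 23 members 8 rose and 2 fell (median 0.37, or 0.23 without ES-2 or IVDS2-C2 and 0.65 without IVDS2-C1). ANXA1, an annexin that restrains inflammation, read 1.78 and 2.49 in the centre and -0.06 and -2.19 in ES cells (3.26 ± 0.56), S100P 2.09 and 3.41 in the centre and -0.22 and 0.23 in ES cells (2.75 ± 0.35), and S100A11 1.33 and 1.93 in the centre and -0.41 and -0.70 in ES cells (2.18 ± 0.18). The serpins SERPINE2 and SERPINB6, inhibitors of proteases, fell, at -1.66 ± 0.18 and -1.07 ± 0.22.

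Interferon-stimulated genes were where the 2 centre arrays differed most plainly. The list mean over 22 members was 0.62 and 2.05 in IVDS2-C1 and IVDS2-C2, against -0.17 and 0.00 in the ES arrays and -0.18 and -0.32 in the IVDS2-P arrays, and IVDS2-C2 read above IVDS2-C1 in all 22. In the arrays of whole stage 2 cells, IVDS2-1 and IVDS2-2, the list mean was -0.33 and -0.51, below both ES arrays. IFIT1 read -0.22 and -0.43 in these 2 arrays, so RNA of whole stage 2 cells did not show the rise of the centre. The reason was not tested. IFIT1 read 3.36 and 6.25 in the centre and -0.65 and -0.23 in ES cells (5.24 ± 0.71, 37.8-fold, adjusted p = 0.000908), IFI27 2.54 and 5.10 in the centre and -1.01 and -1.05 in ES cells, and IFIT3 2.95 and 5.54 in the centre and -0.51 and -0.23 in ES cells (4.61 ± 0.63). In these 3 genes even the lower centre array was more than 3 log2 units above both ES arrays. MX1, a GTPase that blocks virus replication, rose by 2.48 ± 0.51 and IRF1, a transcription factor of the response, by 1.55 ± 0.26, both whichever array was left out. ISG15, a ubiquitin-like modifier, read 1.18 and 3.65 in the centre and -0.20 and 0.20 in ES cells (2.41 ± 0.60, adjusted p = 0.0164), and its adjusted p was 0.0679 without ES-1.

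Other genes of the response read high in IVDS2-C2 alone. OAS2, which makes the activator of an antiviral ribonuclease, read 0.17 and 2.65 in the centre and -0.27 and 0.00 in ES cells and was not called (1.55 ± 0.61, adjusted p = 0.0859). The RNA sensor RIGI read 0.33 and 2.53 in the centre and -0.56 and 0.32 in ES cells (adjusted p = 0.0728), and IFIH1, another such sensor, 0.02 and 0.84 in the centre and 0.02 and -0.09 in ES cells (adjusted p = 0.17). In these 3 genes IVDS2-C1 lay within 0.5 of the higher ES array and IVDS2-C2 well above it. Altogether 8 of 22 members rose and 1 fell (median 1.14). With IVDS2-C1 left out the count was 16, and with IVDS2-C2 left out it was 7 with a median of 0.34. The member that fell was IFITM1, a membrane protein that blocks virus entry and is also made by ES cells, which read -0.82 and -0.52 in the centre and 1.52 and 1.99 in ES cells (-2.42 ± 0.33, adjusted p = 0.000868). Without ES-2, the array that read high at the viral or other probe sets, the list median was 1.15.

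**Figure D4:**
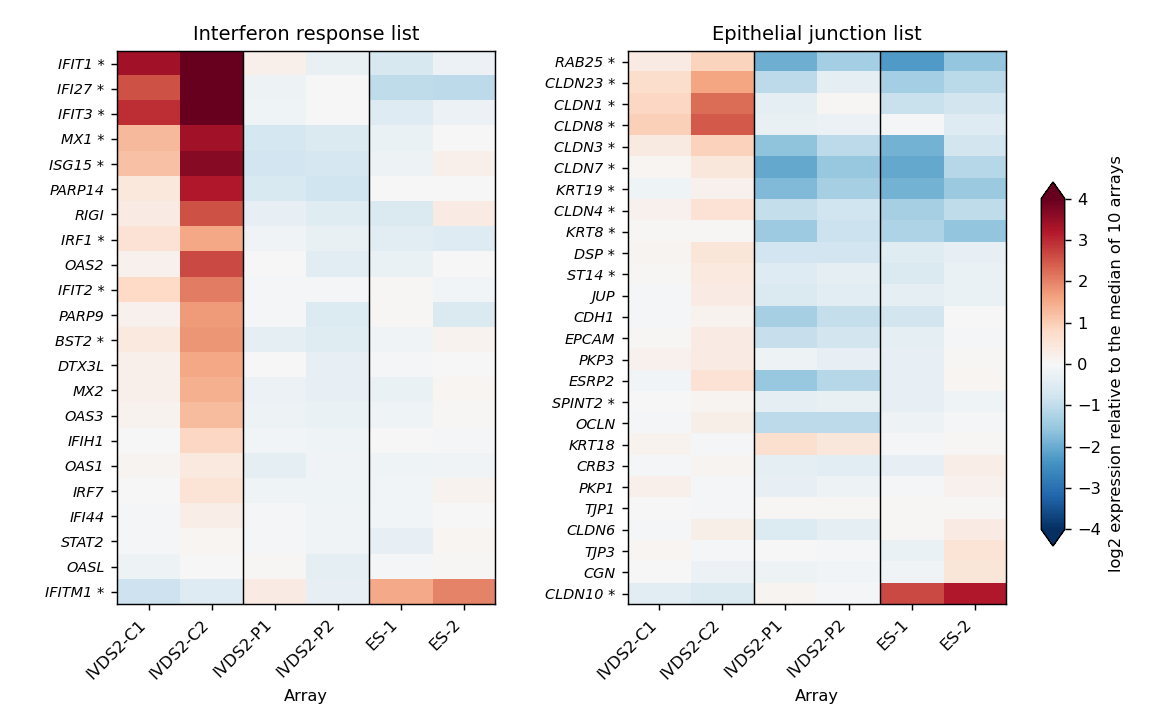
Heat maps of the interferon response list (left) and the epithelial junction list (right) in the 2 IVDS2-C, 2 IVDS2-P and 2 ES arrays, coloured by log2 expression relative to the median of the 10 arrays, with genes ordered by the IVDS2-C minus ES difference and * for genes called. In the interferon list IVDS2-C2 is darker red than IVDS2-C1 in the upper rows, while IVDS2-P and ES stay pale except at IFITM1 in the ES arrays.

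Cytokine genes showed both patterns. CXCL10, an interferon-induced chemokine, read 2.50 and 5.08 in the centre and -0.24 and -0.28 in ES cells (4.05 ± 0.66, adjusted p = 0.00219), and the neutrophil chemokine CXCL8 2.26 and 3.89 in the centre and -0.57 and 0.13 in ES cells (3.30 ± 0.43). In contrast, IL6 read 2.06 and 2.13 in the centre and -0.19 and 0.13 in ES cells (2.13 ± 0.18, adjusted p = 0.000115) and IL1B 1.50 and 1.82 in the centre and -0.22 and -0.01 in ES cells (1.78 ± 0.13, adjusted p = 6.68e-05), where the 2 centre arrays lay within 0.4 of each other. CXCL12, the ligand of CXCR4, fell (-0.13 and -0.60 in the centre, 1.04 and 1.31 in ES cells, -1.53 ± 0.20). Of 24 members 8 rose and 1 fell (median 0.50). Without IVDS2-C2 there were 5 rises and a median of 0.28, and without ES-1 there were 3 falls. Among antigen presentation genes 1 of 17 was called, the peptide-loading protein TAPBP, which rose by 0.82 ± 0.16. There were 4 rises without IVDS2-C1 and 2 without ES-2, and 2 falls without ES-1.

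Genes of DNA replication fell almost throughout their list: 19 of 23 members were called lower and the other 4 were not called, with a median of -1.05, and 13 of the falls held with each array left out in turn. The list mean was -0.40 and -0.91 in the centre arrays and 0.47 and 0.14 in the ES arrays. ORC1, of the origin recognition complex, read -0.82 and -1.44 in the centre and 1.05 and 0.42 in ES cells (-1.86 ± 0.32, adjusted p = 0.00274). CDC6, which loads the replicative helicase, differed by -1.59 ± 0.28, and the helicase subunits MCM3 and MCM5 by -1.44 ± 0.23 and -1.41 ± 0.22. MCM10 and GINS2, further parts of the replication machinery, differed by -1.47 ± 0.27 and -1.40 ± 0.25. In all 23 members IVDS2-C2 read below IVDS2-C1, and without IVDS2-C2 the list had 13 members called lower.

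Among mitosis genes the calls rested on single arrays. With all arrays 14 of 22 members fell and the other 8 were not called (median -0.79), but 1 was called without IVDS2-C2 (median -0.50) and 4 without ES-1. CCNB1, the mitotic cyclin, read 0.10 and -0.56 in the centre and 0.86 and 0.72 in ES cells (-1.02 ± 0.24, adjusted p = 0.012, and 0.0861 without IVDS2-C2). KIF2C, a microtubule depolymerase of the centromere, read -0.03 and -0.89 in the centre and 0.81 and 0.78 in ES cells (-1.25 ± 0.26) and was the single member with a call that persisted when any single array was removed. All 22 differences were below 0, from -1.25 to -0.24, and IVDS2-C2 read below IVDS2-C1 in all 22.

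Growth arrest genes rose in 14 of 25 members and fell in 3 (median 0.90, 9 rises without IVDS2-C2). CDKN1A, which encodes the cyclin-dependent kinase inhibitor p21, read 1.38 and 1.82 in the centre and -0.75 and -0.41 in ES cells (2.18 ± 0.21, 4.53-fold, adjusted p = 0.000194). DDIT3, a transcription factor of the unfolded protein response, read 1.29 and 2.14 in the centre and -1.54 and -0.30 in ES cells (2.64 ± 0.43), and the stress cytokine GDF15 read 1.34 and 2.65 in the centre and -0.60 and 0.01 in ES cells (2.29 ± 0.36). For these 3 genes the lower centre array still lay more than 1 log2 unit above both ES arrays, with GDF15 the narrowest. DDIT4, an inhibitor of mTOR signalling, rose by 1.74 ± 0.17. The antiproliferative BTG2 and the stress sensor GADD45B rose by 1.83 ± 0.48 and 1.77 ± 0.47, with the call lost for BTG2 (adjusted p = 0.0666 without ES-1 and 0.126 without IVDS2-C2) and for GADD45B (adjusted p = 0.089 without ES-1 and 0.14 without IVDS2-C2). The members that fell were the death receptor FAS (-1.14 ± 0.20), the apoptosis effector BAX (-0.75 ± 0.13) and the cyclin CCND1 (-0.76 ± 0.21), the last with an adjusted p of 0.0704 to 0.104 without any one of ES-2, IVDS2-C1 and IVDS2-C2.

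Chromatin and DNA methylation genes fell in 13 of 26 members and rose in 2 (median -0.55, 8 falls without IVDS2-C2). Beside DNMT3B, these were led by TET1, which oxidises methylated cytosine (-0.24 and -1.30 in the centre, 0.57 and 0.91 in ES cells, -1.51 ± 0.32), the chromatin protein HMGA1 (-1.28 ± 0.19), JARID2, a partner of the Polycomb repressive complex (-1.15 ± 0.17), and the deacetylase SIRT1 (-0.94 ± 0.12). TET2, a relative of TET1, ran the other way and read 0.30 and 0.35 in the centre and -1.03 and -0.99 in ES cells (1.34 ± 0.10, adjusted p = 6.68e-05). In glycolysis 9 of 20 members fell and 1 rose (median -0.38), among them ALDOC (-1.09 ± 0.15), ENO2 (-0.69 ± 0.12), TPI1 (-0.68 ± 0.13) and GAPDH (-0.65 ± 0.12). Of the 9 falls ALDOC alone exceeded 2-fold, and 5 members were called lower without IVDS2-C2.

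Lists of general metabolism and stress had few calls that did not rest on single arrays. Ribosomal protein genes had 2 of 19 members called higher and 5 lower (median -0.20), where both rises held in every fit without 1 array and 0 to 3 falls were called without any one of ES-1, IVDS2-C2, IVDS2-P1, IVDS2-P2, IVDS3-1 and IVDS3-2. Respiratory chain and mitochondrial ribosome genes had 6 of 22 lower (median -0.15), against 3 without ES-1 or IVDS2-C1 and 1 without IVDS2-C2. Cholesterol and lipid genes had 3 of 20 higher and 2 lower (median -0.18), with 1 higher without IVDS2-C2. CPT1A, which admits fatty acids to the mitochondrion, read 0.99 and 1.85 in the centre and -1.18 and -0.94 in ES cells (2.47 ± 0.27) and was the rise that held with each array left out in turn. In the list of stress and immediate early genes 5 of 15 rose and 2 fell (median 0.90), with 1 rise without IVDS2-C2 and 2 without any one of ES-1, IVDS3-1 and IVDS3-2. The median was 0.41 without ES-1 and 0.45 without IVDS2-C2, and in both of these fits 0 falls were called, against 1 without any one of ES-2, IVDS2-C1, IVDS2-P1, IVDS2-P2, IVDS3-1 and IVDS3-2. ZFP36, an RNA-binding protein that destabilises cytokine transcripts, read 0.37 and 0.80 in the centre and -1.39 and -1.07 in ES cells (1.82 ± 0.22, adjusted p = 0.000484). The other 4 rises were those of ATF3, DNAJB1, JUND and MT1X.

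The endoderm and liver lists were near the background. In the endoderm list 4 of 20 members rose and 3 fell, with a median of 0.05, and 2 rises were called without ES-2. SOX17, FOXA2 and GATA4 were not called, at 0.36 ± 0.31, 0.01 ± 0.12 and -0.20 ± 0.14. SOX17 read 0.79 and 0.05 in the centre and 0.08 and 0.04 in ES cells, so the first centre array was high and the second was level with the ES arrays. GATA6, of the early endoderm and heart, read 1.65 and 0.04 in the centre and -0.15 and -1.34 in ES cells and narrowly missed the threshold (1.59 ± 0.56, adjusted p = 0.0601). It was called without IVDS2-C2 (2.39, adjusted p = 0.0184) and without ES-1 (2.19, adjusted p = 0.0368). CXCR4, a chemokine receptor used as a marker of definitive endoderm and present in other lineages, rose by 2.35 ± 0.39, and the forkhead factor FOXA3 (-1.96 ± 0.27) and the homeobox factor HHEX (-1.19 ± 0.17) of endoderm and liver fell.

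Among 23 secreted liver proteins 2 were called higher, 1 lower, and each of these 3 calls was lost without some array, while 6 members were called lower without ES-1. AFP, the alpha-fetoprotein of fetal liver, read -0.19 and -0.14 in the centre and 0.15 and 0.07 in ES cells (-0.27 ± 0.12, adjusted p = 0.123). SERPINA1, APOB and FGB were not called either, at 0.04 ± 0.12, -0.20 ± 0.15 and 0.47 ± 0.85. The wide error of FGB goes with 1 array of whole stage 2 cells, IVDS2-2, which enters the spread and read 3.05. In liver metabolism 3 of 15 members rose and 2 fell (median -0.04), with 1 fall in each fit without 1 array other than IVDS2-C2. CYP1A1 read 1.07 and 3.59 in the centre and -3.15 and -2.35 in ES cells, CEBPA, a transcription factor of liver and fat, rose by 1.08 ± 0.17, and ABCC2, which exports conjugates into bile, fell (-0.34 and -0.46 in the centre, 2.54 and 2.30 in ES cells, -2.83 ± 0.16, adjusted p = 1.9e-05). In the cholangiocyte list 8 of 15 members rose and 1 fell (median 0.45), but the risers SOX9, KRT7, KRT19 and CLDN4 (1.56 ± 0.16) are also genes of other epithelia or of the crest, the water channel AQP1 rose by 1.57 ± 0.25, and SPP1, a common marker of bile ducts, was the one that fell.

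Mesoderm and muscle genes were called in both directions, 6 of 20 higher and 4 lower (median -0.04). HAND1, of heart and trophoblast, read 1.87 and 0.84 in the centre and -0.25 and -0.22 in ES cells (1.59 ± 0.27, adjusted p = 0.00277). FOXC1, MEF2C and the troponin TNNT2 rose by 2.81 ± 0.28, 1.47 ± 0.17 and 1.45 ± 0.28, and the smooth muscle calponin CNN1 fell (-1.71 ± 0.29). Of the 4 falls 1 was called without ES-2, IVDS2-C1 or IVDS2-C2. In the endothelial and blood list 1 of 12 members rose and 3 fell (median -0.25, 1 fall without IVDS2-C1 or IVDS2-C2).

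Fibroblast genes were read as a list because the labels do not say how feeder and hESdF cells were kept out. Of 22 members 8 rose and 4 fell (median 0.18), with 5 rises without IVDS2-C2 and 2 falls without IVDS2-C1, IVDS2-C2, IVDS3-1 or IVDS3-2. The list mean was 0.19 and 0.14 in the centre arrays against -0.16 and -0.29 in the ES arrays, so the centre was slightly above ES cells in both arrays. COL1A2, a chain of type I collagen, read 1.19 and 0.86 in the centre and -1.16 and -1.51 in ES cells (2.36 ± 0.16, adjusted p = 4.79e-05), and the small proteoglycan LUM 1.87 and 2.23 in the centre and -0.32 and -0.20 in ES cells (2.31 ± 0.21). Fibronectin (FN1) and the type V collagen chain COL5A2 rose by 2.46 ± 0.25 and 2.14 ± 0.15. The partner chain COL1A1 and the surface marker THY1 ran the other way: COL1A1 read -0.04 and -0.28 in the centre and 0.69 and 0.52 in ES cells (-0.77 ± 0.24, adjusted p = 0.041, and 0.0552 to 0.194 without any one of ES-1, ES-2, IVDS2-C1, IVDS2-C2, IVDS3-1 and IVDS3-2), and THY1, which ES cells also make, read -0.34 and -0.33 in the centre and 1.17 and 1.26 in ES cells (-1.55 ± 0.14, adjusted p = 0.000138). VIM rose by 1.00 ± 0.29, with an adjusted p of 0.0824 to 0.142 without any one of ES-2, IVDS2-C1 and IVDS2-C2. Among 10 regulators and markers of the epithelial to mesenchymal transition 3 rose, FN1, VIM and the cadherin CDH11, and TWIST1 fell (median 0.15), with 5 rises without ES-1 1 without ES-2, IVDS2-C1 or IVDS2-C2, and a call for FN1 alone in every fit without 1 array. The values are centred, so whether any of these genes was at or near 0 in a group cannot be said. The 2 probe sets of COL1A1 differed in size, at -1.41 and -0.12 between centre and ES cells, so its fall rested mainly on 1 of them. The part of feeder or co-culture cells in the differences above was not tested.

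A direct comparison with the periphery of the same stage asked where the centre itself stood apart. It called 1265 genes (9.59%), 744 higher (5.64%) and 521 lower (3.95%) in the centre, and the count rested on single arrays, at 374 without IVDS2-C2, 348 without IVDS2-P1 and 530 without IVDS2-P2. Between IVDS2-P and ES 1449 genes (11%) were called, 833 higher (6.31%) and 616 lower (4.67%) in the periphery. In the comparison of centre with periphery the share called higher was 58.8% of the calls, against 84.8% without IVDS2-C2 and 71.7% with the 4 arrays of this comparison alone. This comparison shares the centre arrays with the one against ES cells, so the 2 sets of results are not independent. The highest and lowest genes named next were chosen among those called in both and without overlap of the arrays in either.

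Among the 10 genes highest over the periphery were GABRP and BNC1, described above among the rises over ES cells. GABRP read 2.02 and 2.73 in the centre and -2.22 and -2.40 in the periphery (4.69 ± 0.23, adjusted p = 7.07e-05), and BNC1 1.97 and 2.16 in the centre and -2.77 and -2.47 in the periphery (4.68 ± 0.30, adjusted p = 0.000183). For BNC1 the periphery lay close to the ES arrays, at a difference of 0.59 ± 0.30 between periphery and ES cells. IFIT1 (4.84 ± 0.71), IFIT3 (4.33 ± 0.63), IFI27 (3.93 ± 0.61), CXCL10 (3.98 ± 0.66) and CYP1A1 (4.23 ± 0.67) were also among the 10 highest, with calls lost without IVDS2-P1 for IFI27 (adjusted p = 0.0501), CXCL10 (adjusted p = 0.0663) and CYP1A1 (adjusted p = 0.0565). PLAC8, a small protein named for its expression in placenta, read 3.62 and 3.71 in the centre, -0.54 and -0.25 in the periphery and -0.19 and -0.42 in ES cells (4.06 ± 0.20 against the periphery). ZNF750, which acts downstream of TP63 in epidermal differentiation, read 2.37 and 4.09 in the centre, -0.65 and -0.82 in the periphery and -0.59 and -0.62 in ES cells (3.96 ± 0.43 against the periphery). C5H4orf19 was the remaining one of the 10 (4.04 ± 0.32). In both PLAC8 and ZNF750 the periphery and ES arrays lay together. The centre arrays stood apart from both, as the choice of these genes required.

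Among the 10 lowest were POU5F1 and DPPA4 of pluripotent cells and the WNT inhibitors SFRP1 and SFRP2. POU5F1 read -0.50 and -3.38 in the centre and 1.85 and 1.10 in the periphery (-3.41 ± 0.79, adjusted p = 0.0305), with an adjusted p of 0.0549 to 0.168 without any one of IVDS2-C2, IVDS2-P1, IVDS2-P2, IVDS3-1 and IVDS3-2. SFRP1 and SFRP2 differed by -2.89 ± 0.38 and -2.64 ± 0.29, NPTX2 by -2.88 ± 0.34 and RGS20 by -2.87 ± 0.28, all held in every fit without 1 array. SPP1 (-2.93 ± 0.78), OTUD3 (-2.55 ± 0.53), BEND4 (-2.55 ± 0.50) and DPPA4 (-2.50 ± 0.53) were called with all arrays, but SPP1 had an adjusted p of 0.07 to 0.35 without any one of IVDS2-1, IVDS2-2, IVDS2-C2, IVDS2-P1, IVDS2-P2, IVDS3-1 and IVDS3-2, OTUD3 of 0.0859 to 0.147 without any one of IVDS2-C2, IVDS2-P1 and IVDS2-P2, BEND4 of 0.0549 to 0.109 without any one of IVDS2-C2, IVDS2-P1 and IVDS2-P2 and DPPA4 of 0.0733 without IVDS2-P2 and 0.133 without IVDS2-P1. TWIST1, a mesenchymal transcription factor, read -0.92 and -1.14 in the centre, 2.34 and 1.41 in the periphery and -0.44 and 0.52 in ES cells (-2.91 ± 0.35 against the periphery, adjusted p = 0.00213). Among these groups the centre was lowest and the periphery highest. Whole stage 2 cells, at -1.56 and -1.26, read below both the centre and the periphery.

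**Figure D5:**
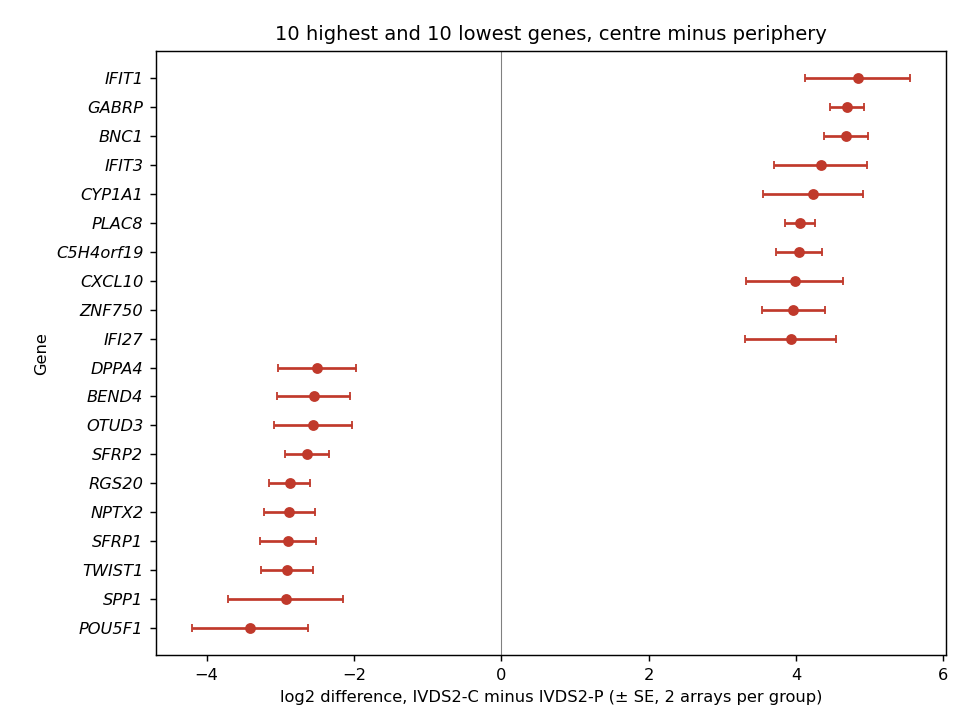
Log2 difference between IVDS2-C and IVDS2-P for the 10 highest and 10 lowest genes among those called both in this comparison and in IVDS2-C against ES, with bars for the SE from the fit over 10 arrays. The choice also required arrays without overlap in both comparisons and no locus-number symbol. The highest, IFIT1, GABRP and BNC1, lie near 5, at 4.84, 4.69 and 4.68, and the lowest, POU5F1, at -3.41 with a wider bar.

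Read by list, the medians of centre minus periphery were highest for the interferon list at 1.26, the trophoblast and amnion list at 1.13 and the epithelial junction list at 1.04. Trophoblast and amnion genes were called higher in the centre in 15 of 23 members, epithelial junction genes in 17 of 26, epidermal genes in 12 of 21, and S100, serpin and annexin genes in 11 of 23, where 5.64% of all genes were. Without IVDS2-C2 these counts were 11, 10, 9 and 5, without IVDS2-P1 they were 10, 8, 8 and 6, and without IVDS2-P2 they were 10, 12, 10 and 7. CDH1 read -0.04 and 0.15 in the centre and -1.33 and -0.96 in the periphery (1.20 ± 0.24, adjusted p = 0.0172), and this call was lost in some fits, at 0.123 without IVDS2-P1 and 0.124 without IVDS2-C2. Interferon genes were called higher in 9 of 22, against 17 without IVDS2-C1, 2 without IVDS2-P1 and 4 without IVDS2-P2. Replication genes were called lower in 12 of 23 members and in 7 without any one of IVDS2-1, IVDS2-2, IVDS3-1 and IVDS3-2. None was called by limma without IVDS2-C2, IVDS2-P1 or IVDS2-P2, where 13, 15 and 17 were lower at an unadjusted p under 0.05. Pluripotency genes were called lower in 8 of 19, against 4 without IVDS2-C2, 2 without IVDS2-P1 and 5 without any one of IVDS2-P2, IVDS3-1 and IVDS3-2. No mitosis gene of 22 was called by limma (median -0.49), with 7 lower at an unadjusted p under 0.05, and 6 were called lower without IVDS2-C1.

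For other genes that differed from ES cells no difference between the 2 areas of the colony was called. PAX6 read 0.11 and 0.82 in the centre and 0.01 and 0.87 in the periphery (0.02 ± 0.48), and every one of these arrays was above both ES arrays. MEIS1 and COLEC12 were not called either, at 0.12 ± 0.30 and -0.06 ± 0.60. NR2F2 read 0.46 and 0.50 in the centre and -0.72 and -0.27 in the periphery, without overlap, and missed the threshold (0.98 ± 0.31, adjusted p = 0.0821), but was called in 2 of the 10 fits without 1 array. These missed calls do not show that the areas were alike. Of 15 neural genes 1 was called higher in the centre and 3 lower (1 lower without IVDS2-C2, IVDS2-P1 or IVDS2-P2), where 5.64% of all genes were called higher and 3.95% lower. Fibroblast genes went both ways, with 5 of 22 called higher and 4 lower, both above these shares, and list means of 0.19 and 0.14 in the centre and 0.15 and 0.05 in the periphery. Without IVDS2-P1 there were 3 higher and 2 lower, and without IVDS2-C1 or IVDS2-C2 2 lower.

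Stage 3 cells differed from the centre in both directions. Between IVDS3 and the centre 2883 genes (21.9%) were called, 1441 higher and 1442 lower in IVDS3 (10.9% each), with 1473 called without IVDS3-1, 1482 without IVDS2-C1 and 1803 without IVDS3-2. Interferon genes were higher in IVDS3 in 21 of 22 members (12 without IVDS3-1 and 14 without IVDS3-2), with a list mean of 3.99 and 3.88 in the IVDS3 arrays, against 0.62 and 2.05 in the centre arrays, and IFI44, at -0.07 and 0.26 in the centre, read 7.10 and 6.79 in IVDS3 (6.85 ± 0.15, adjusted p = 4.31e-08). Epidermal genes were higher in 15 of 21, with DSG3 at 5.93 and 5.66 in IVDS3 and 1.37 and 2.93 in the centre (3.65 ± 0.40). Replication genes were lower in 20 of 23, against 10 without IVDS2-C1 and 12 without IVDS3-1, and mitosis genes in 21 of 22. In contrast, genes of the crest and border list were lower in 6 of 16 and higher in 2, with 3 lower and 0 or 1 higher without IVDS2-C1 or IVDS3-1: SOX9 read -1.08 and -1.39 in IVDS3 and 0.68 and 1.00 in the centre (-2.07 ± 0.22), and MSX1 -1.36 and -1.33 in IVDS3 and 0.58 and 0.26 in the centre (-1.76 ± 0.23). HAPLN1, the second largest rise of the centre over ES cells, read -1.40 and -0.80 in IVDS3 and 1.90 and 1.44 in the centre (-2.77 ± 0.27, adjusted p = 0.000164).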

How the data were processed

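Total RNA of 10 samples was hybridised to Affymetrix arrays, per the labels. The deposited values are log2 expression that the authors made with RMA, per the submitters' processing notes, with no version given in the sources used here. In the file each probe set has a median of 0 over the 10 arrays, so the values were centred before deposit. No label gives the log base, which was taken as 2 from the range of the values, which reached 9.51 within a probe set. Levels and dim probe sets therefore could not be judged, and no filter on them was possible.

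Of 44294 probe sets 84 controls were left out. GEO's platform annotation gave 22802 of the other 44210 probe sets 1 gene symbol, 316 several and 21092 none, and the means of the first kind gave 13191 genes (7438 from 1 probe set). Where probe sets of a gene disagree, as in TP63 and COL1A1, the mean hides it. Groups followed the sample titles. Group means were compared in limma 3.58.1 (R 4.3.3), with 5 groups of 2 arrays, 5 residual degrees of freedom and two-sided empirical Bayes tests, Benjamini-Hochberg adjusted over 13191 genes at 0.05. The scripts were tested on simulated data. Only 2 arrays per group limit the precision.

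Named are, in the comparison with ES cells, the 15 genes that rose most and the 15 that fell most, among called genes without overlap between groups and without a locus-number symbol, up to 6 called members per direction of each of 34 lists (892 genes, 640 measured), 25 landmark genes, the 10 highest and 10 lowest of centre minus periphery called in both comparisons, the 10 largest differences among genes called in opposite directions in centre and periphery, and list members not called. The highest and lowest genes of centre minus periphery also had arrays without overlap in either comparison and no locus-number symbol. The members and lists were chosen with earlier results of these data known. No p-value is given for a list. Alternatives were centring of arrays, the 4 arrays alone, a replicate block, each array left out, the most variable probe set, robust fitting and a 2-fold minimum. Figures used matplotlib 3.10.9.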

Additional observations from a re-analysis of the deposited data

Results flagged for a closer look

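Each of the following genes was called in opposite directions against ES cells in the centre and in the periphery, and called between centre and periphery. Between periphery and ES cells 1449 genes (11%) were called. There were 14 such genes, and the 10 with the largest difference between centre and periphery are given. Both comparisons with ES cells use the same ES arrays. All 10 lost the call between periphery and ES cells without at least 1 array.

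LCP1, which encodes the actin-bundling protein L-plastin, read 2.02 and 2.35 in the centre, -1.19 and -1.61 in the periphery and -0.49 and -0.09 in ES cells, with a log2 difference of 3.59 ± 0.23 (SE) between centre and periphery. The binding protein IGFBP3 read 1.53 and 0.69 in the centre, -1.82 and -1.66 in the periphery and -0.42 and -0.59 in ES cells (2.85 ± 0.33 between centre and periphery). Among centre, periphery and ES cells, the centre was highest and the periphery lowest in both genes. The rule of choice places the ES mean between those of centre and periphery, so only the direction of this order was open. The same order held for the guidance cue SEMA3A (1.72 ± 0.20), the placental cadherin CDH3 (1.66 ± 0.22), the membrane peptidase MME (1.59 ± 0.17), the calcium-binding proteins S100A10 (1.56 ± 0.16), S100A6 (1.47 ± 0.18) and SRI (1.37 ± 0.16), and the GTPase regulator DOCK9 (1.15 ± 0.11).

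TWIST1 was the exception among these 10, lower in the centre than in ES cells and the periphery, with -2.91 ± 0.35 between centre and periphery. In whole stage 2 cells it read -1.56 and -1.26, below both centre arrays. The calls between centre and ES cells were themselves lost for TWIST1 and 4 others without some array: the adjusted p was 0.122 without ES-2 and 0.159 without IVDS2-C2 for SEMA3A, 0.0701 to 0.16 without any one of ES-1, ES-2, IVDS2-C1 and IVDS2-C2 for CDH3, 0.118 without ES-2 and 0.168 without IVDS2-C2 for S100A6 and 0.0515 to 0.254 without any one of ES-1, ES-2, IVDS2-C1, IVDS2-C2, IVDS2-P1 and IVDS2-P2 for SRI.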

How the results depend on the processing

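Counts of called genes depended on which arrays entered. Between IVDS2-C and ES the 3976 calls were 2167 with those 4 arrays alone, 1257 with a minimum of 2-fold, and 1896 (without IVDS2-C2) to 4338 (without ES-1) with 1 array left out. Between IVDS2-C and IVDS2-P the 1265 calls were 614, 549, and 348 (without IVDS2-P1) to 1612 (without IVDS2-C1). Between IVDS3 and IVDS2-C the 2883 calls were 1122 with a minimum of 2-fold and 1473 to 3323 with 1 array left out. Between IVDS2-P and ES the 1449 calls were 752, 514, and 355 (without IVDS2-P2) to 2706 (without ES-1), with 630 without ES-2 and 820 without IVDS2-P1. Between IVDS3 and IVDS2-C the 4 arrays alone gave 2974 calls, more than the 2883 with all arrays. A further criterion lowers a count by construction. Fewer arrays gave fewer calls in some fits and more in others, and the cause of these shifts was not tested. Whether equal replicate numbers pair the samples is not known. The correlations of the replicate differences ran from -0.21 to 0.28 over 10 pairs of groups, which cannot settle it. With the number as a replicate block the counts were 4072, 1441, 2995 and 1540, each above the count without it. Centring each array gave 3782, 1218, 2810 and 1452, the most variable probe set 4077, 1220, 2983 and 1412, and robust fitting 3977, 1260, 2880 and 1450. For the difference between IVDS2-C and ES, 59 genes (the largest rises and falls, the landmarks and the extremes of centre minus periphery) were followed through 15 settings. No called difference changed sign. For the largest rises and falls and the extremes this was nearly fixed in advance, as they were chosen for calls without overlap between centre and ES arrays. Most settings also leave the difference itself unchanged, so the absence of sign changes says little about stability. Of 885 combinations 26 changed a call, all in CCNB1, CDH1, COL1A1, GATA6, TWIST1 and VIM. Uncalled differences near 0 changed sign without IVDS2-C1 in FOXA2 (-0.10), KRT18 (-0.04), SERPINA1 (-0.01) and SOX17 (-0.01), and without ES-1 in FOXA2. Calls between centre and periphery lost without 1 array stand in the account of that comparison. Only 2 arrays per group and centred values, which give no signal over background, limit what these data can show.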
